A study of Mus musculus with 6 samples.

Results

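The miR-129 family in the mouse table comprised 5 listed forms: mmu-miR-129-5p, mmu-miR-129-1-3p and mmu-miR-129-2-3p, and the pair mmu-miR-129b-5p and mmu-miR-129b-3p from a hairpin annotated on the opposite strand (the mouse prefix is left out from here on). They were taken by name from the first column of the count table, and made up 5 of 1364 listed miRNAs. All 5 had counts in every library, so no filter on low values touched them. The samples were small RNA libraries of the whole nucleus accumbens (NAc), core and shell together, from adult male C57BL/6N mice aged 7 to 8 weeks. In the conditioned place preference (CPP) model, an animal learns to prefer the chamber in which it received a drug. The saline group (3 libraries) was conditioned with saline and the morphine group (3 libraries) with 10 mg/kg morphine over 6 days, and the tissue was collected 0.5 h after the test on day 7. All mice were wild type, and nothing but the injected agent separated the groups in the sample records. The study's design text gives 6 mice per group for 3 samples, which is 2 mice per library, whereas a figure legend names 1, so whether animals were pooled is not settled.

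A miRNA hairpin is cut first by Drosha and then by Dicer into a short duplex, and 1 strand of it, the 5p or the 3p arm, is usually retained by an Argonaute protein while the other is degraded. The loaded strand finds mRNAs mainly through its seed, the bases near its 5′ end, and lowers their stability and translation. miR-129-5p is enriched in brain, and in cultured neurons it is known to take part in homeostatic down-scaling of synapses and to repress the potassium channel Kv1.1. In the mouse genome the same 5p arm is encoded at separate loci, Mir129-1 and Mir129-2, whose 3p arms carry locus names.

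Sequences are shown because they set which forms the counts can tell apart. Of the 5 forms, 4 matched a mature sequence in RefSeq (GRCm38.p6), and the other was miR-129-1-3p. The capitals mark the seed, bases 2 to 8 from the 5′ end.
miR-129-5p: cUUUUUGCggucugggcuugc
miR-129-2-3p: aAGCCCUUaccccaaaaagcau
miR-129b-5p: gCUUUUUGggguaagggcuucc
miR-129b-3p: cAAGCCCAgaccgcaaaaagauu
The 4 sequences have 4 different seeds, and no other listed miRNA with a RefSeq sequence carried any of them. miR-129-5p (21 bases) lies at chr2:94241419-94241439 on the minus strand and again at chr6:29022624-29022644 on the plus strand. miR-129-2-3p (22 bases) lies at chr2:94241376-94241397 on the minus strand. On the plus strand of the same locus are miR-129b-5p (22 bases, chr2:94241378-94241399) and miR-129b-3p (23 bases, chr2:94241420-94241442). These positions are of the reference build, as the build used for the table is not given in the sources used here.

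The hairpins of chromosome 2 are given to show the overlap of the strands, with the mature arms in capitals.
Mir129-2: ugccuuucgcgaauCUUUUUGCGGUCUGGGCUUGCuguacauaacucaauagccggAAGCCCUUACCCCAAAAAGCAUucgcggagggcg
Mir129b: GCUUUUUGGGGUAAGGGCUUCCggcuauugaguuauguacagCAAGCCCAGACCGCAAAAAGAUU
Mir129-2 is 90 bases long (chr2:94241364-94241453, minus strand), and all 65 bases of Mir129b (chr2:94241378-94241442, plus strand) are the reverse complement of a stretch inside it. miR-129-5p and miR-129b-3p therefore pair over 20 bases, as do miR-129-2-3p and miR-129b-5p. Mir129-2 lies within an intron of the long non-coding RNA gene Mir670hg and on its strand, and the nearest protein-coding gene, Ttc17, is 59314 bases away. Mir129-1 (73 bases, chr6:29022619-29022691, plus strand) overlaps an exon of the long non-coding RNA gene Gm3294, and its nearest protein-coding gene is Lep, 37529 bases away. The hairpins Mir129-1 and Mir129-2 share an unbroken run of 26 bases that holds all of miR-129-5p. A read of miR-129-5p thus cannot be assigned to either locus, and only the 3p forms carry a locus name. On the 3p side the hairpins share an unbroken run of 21 bases, which holds the seed of miR-129-2-3p. How reads that end within this run were assigned to the 3p forms is not given in the sources used here.

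The libraries held 4183333 to 9842050 counts, and 3 counts correspond to 0.305 to 0.717 CPM (counts scaled to a common total, as parts per M counts). Such limits cover counting error only, since PCR copies without molecular identifiers are not independent molecules. Saline replicate 2 stood apart from saline replicates 1 and 3 in the levels of all 5 forms, so values without it are given where they change a result. The 6 libraries are separate samples in the records, and as the animals behind each are not settled, p-values measure only the spread between these samples, which may be technical.

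miR-129-5p, the most abundant of the forms that belong to the sense hairpins, was lower after morphine. Its count was 205061, 67314 and 284029 in saline replicates 1, 2 and 3. It was 45850, 45238 and 43262 in morphine replicates 1, 2 and 3. The 3 morphine libraries were close to each other and all below the lowest saline library. On the scale of CPM after TMM scaling (a scaling of library totals that limits the weight of very abundant miRNAs), the level was 37534, 10095 and 29789 in saline and 5072, 6628 and 6793 in morphine. The means were 25806 ± 14146 (SD, n = 3) and 6165 ± 950 (SD, n = 3), with saline replicate 2 far below the other saline libraries. The fitted log2 fold change, morphine minus saline, was -2.07 (SE 0.51), or 4.19-fold lower, with an adjusted p of 0.0207 in edgeR's quasi-likelihood test over all miRNAs. Among all miRNAs of a library, miR-129-5p ranked 6, 23 and 6 by count in saline and 28, 24 and 25 in morphine. In bulk tissue, fewer cells that hold a miRNA and less of it per cell cannot be told apart.

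All 5 forms were then set beside the whole table. By the study's criteria for a differentially expressed miRNA, a log2 fold change of at least 0.58 in size with an unadjusted p of at most 0.05, 4 of 5 forms were lower after morphine and 0 were higher, against 9.68% of all miRNAs lower and 19.4% in either direction. At an adjusted p under 0.05 the count was 2 of 5, miR-129-5p and miR-129b-3p, against 2.13% of all miRNAs lower and 5.21% in either direction. This count was 5 without saline replicate 2, where 29.1% of all miRNAs had such a p. It was 0 without morphine replicate 1 or 2 (edgeR), where 0% and 2.77% of all miRNAs had such a p. There, 3 and 4 forms met the study's criteria, beside 13.3% and 14.4% of all miRNAs. The count at an adjusted p under 0.05 was also 0 with the filterByExpr filter, with a minimum of 10 counts and with repeated counts removed. In these settings 9.43%, 3.11% and 2.86% of the miRNAs tested had such a p (edgeR). In each of them 4 forms met the study's criteria, beside 31.3%, 25.6% and 21.1% of the miRNAs tested. Values did not overlap between the groups for 3 of 5 forms, all lower in morphine, against 9.9% of all miRNAs lower and 22.1% in either direction. The forms are not independent in these counts, as miR-129-5p and miR-129b-3p had near-equal counts in every library. The opposite-strand arms are reverse complements of the sense arms, and whether reads were counted under both names was not tested. With each opposite-strand pair counted once 2 of 3 forms were called, beside 18.2% of all miRNAs. Of the 3, 1 had an adjusted p under 0.05 (edgeR), beside 5.16% of all miRNAs. The fold changes of the 5 forms can be read against a median of -0.15 on the log2 scale for the 1364 miRNAs tested.

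miR-129-2-3p, the 3p arm of the chromosome 2 hairpin, had 22746, 6963 and 27939 counts in saline and 8340, 6017 and 6940 counts in morphine. Scaled to CPM with TMM, this was 4163, 1044 and 2930 in saline and 923, 882 and 1090 in morphine. Saline replicate 2 lay between the morphine libraries, so the groups overlapped. The means were 2713 ± 1571 (SD, n = 3) and 965 ± 110 (SD, n = 3), and the log2 fold change was -1.49 (SE 0.51, 95% interval -2.54 to -0.44). This met the study's criteria (edgeR, unadjusted p = 0.00737) but not an adjusted p under 0.05 (edgeR, adjusted p = 0.0786). The call by the study's criteria was lost without saline replicate 1 (log2 fold change -0.95) and without morphine replicate 1 (-1.38).

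miR-129-1-3p, the 3p arm named for the chromosome 6 locus, had 6482, 1384 and 5798 counts in saline and 2375, 2631 and 2932 counts in morphine. Its TMM-scaled CPM was 1186, 208 and 608 in saline and 263, 385 and 460 in morphine. Saline replicate 2 was below every morphine library, whereas saline replicates 1 and 3 were above them. The means were 667 ± 492 (SD, n = 3) and 370 ± 99.8 (SD, n = 3). The log2 fold change was -0.85 (SE 0.54), its 95% interval ran from -1.98 to 0.27, and it did not pass the test (edgeR, adjusted p = 0.443). It ranged from -1.28 without saline replicate 2, where the study's criteria were met, to -0.05 without saline replicate 1.

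On the opposite strand, miR-129b-5p had 3606, 1350 and 5190 counts in saline and 1263, 1015 and 989 in morphine. This corresponded to 660, 202 and 544 CPM after TMM scaling in saline and to 140, 149 and 155 in morphine, so the groups did not overlap. The mean was 469 ± 238 (SD, n = 3) in saline and 148 ± 7.82 (SD, n = 3) in morphine. The log2 fold change was -1.66 (SE 0.51, edgeR, adjusted p = 0.0507). Without saline replicate 2 it was -2.03 (edgeR, adjusted p = 5.78e-13), where 29.1% of all miRNAs had an adjusted p under 0.05. miR-129b-3p had 204444, 67145 and 283487 counts in saline and 45671, 45102 and 43134 in morphine, and its log2 fold change of -2.07 (SE 0.51; edgeR, adjusted p = 0.0207) was that of miR-129-5p to 2 decimals. The order of the levels was miR-129-5p and miR-129b-3p, which differed by less than 0.4% in each library, then miR-129-2-3p, miR-129-1-3p and miR-129b-5p. This order held in all 6 libraries, and since the 4 mature sequences differ by at most 2 bases in length, no length term was used.

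**Figure D1:**
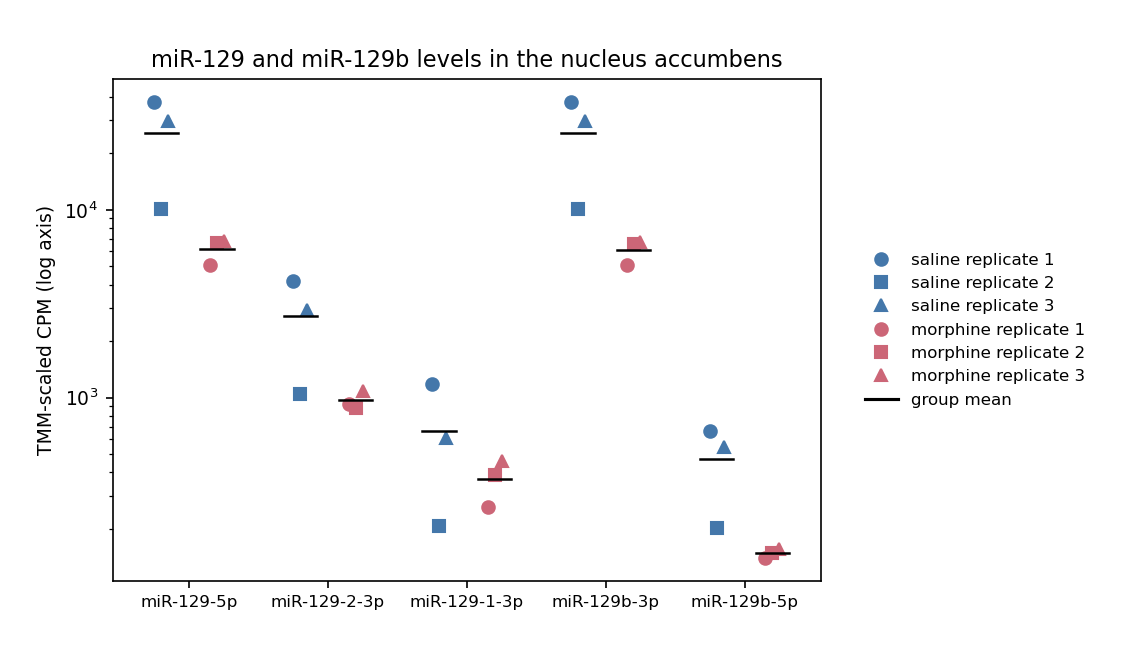
Level of each miR-129 form in the 6 libraries, in CPM after TMM scaling on a log axis. Points are libraries and black bars are group means (n = 3). The morphine libraries of miR-129-5p sit between 5072 and 6793, below the lowest saline library at 10095, while those of miR-129-1-3p sit between the saline libraries.

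The forms together took a large part of some libraries. All 5 names summed to 10.6%, 1.73% and 8.41% of the library in saline replicates 1, 2 and 3. In morphine replicates 1, 2 and 3 they summed to 1.05%, 1.37% and 1.29%. Without the opposite-strand names the shares were 5.60%, 0.908% and 4.41% in saline and 0.575%, 0.739% and 0.703% in morphine. By either sum, each saline library was above each morphine library, and saline replicate 2 was the saline library nearest to the morphine group.

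The arms were then compared within each library, where scaling cancels. Each miR-129-1-3p count was accompanied by 31.6, 48.6 and 49.0 counts of miR-129-5p in saline and by 19.3, 17.2 and 14.8 in morphine. The mean ratio was 43.1 ± 9.92 (SD, n = 3) in saline and 17.1 ± 2.28 (SD, n = 3) in morphine, without overlap. An exact permutation test gave p = 0.1 (two-sided), which is the lowest value that groups of 3 can reach. Saline replicate 2, which had low levels of every form, had a ratio like that of saline replicate 3. In a limma fit of the log2 ratio over 195 pairs of arms, the change was -1.31 (SE 0.32, 95% interval -2.08 to -0.55; limma, adjusted p = 0.0347). Among the 195 pairs, 21% had an adjusted p under 0.05, 10.8% with a lower 5p share in morphine, and 80 pairs moved further than this one. The adjusted p was above 0.05 with a lower count minimum for the pairs (limma, adjusted p = 0.0569) and without any 1 of 5 libraries, saline replicate 2 being the exception, and ranged from 0.00782 to 0.154 over the alternatives.

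The ratio to miR-129-2-3p changed less. It was 9.02, 9.67 and 10.2 in saline and 5.50, 7.52 and 6.23 in morphine, again without overlap (exact permutation test, two-sided p = 0.1). The means were 9.62 ± 0.577 (SD, n = 3) and 6.42 ± 1.02 (SD, n = 3). In the fit over all arm pairs the change in log2 ratio was -0.59 (SE 0.28), with a 95% interval from -1.27 to 0.09 (limma, adjusted p = 0.1705), and 132 of the 195 pairs moved further. The median size of the change over the 195 pairs was 1.11. Since miR-129-5p arises from both hairpins, its ratio to the sum of both 3p forms was also computed, and was 7.02, 8.06 and 8.42 in saline and 4.28, 5.23 and 4.38 in morphine (exact permutation test, two-sided p = 0.1). All 3 ratios of miR-129-5p to the 3p forms were thus lower in every morphine library than in every saline library. The 3 ratios share their counts and are not separate results. The share of the 195 pairs without overlap was not computed.

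For the opposite-strand hairpin, the ratio of miR-129b-3p to miR-129b-5p was 56.7, 49.7 and 54.6 in saline and 36.2, 44.4 and 43.6 in morphine. The groups did not overlap (exact permutation test, two-sided p = 0.1). The change in the log2 ratio of miR-129b-5p to miR-129b-3p was 0.38 (SE 0.27, 95% interval -0.27 to 1.02), which did not pass the test (limma, adjusted p = 0.351). This ratio is no separate measurement of the arms, given the near-equal counts of miR-129b-3p and miR-129-5p described below.

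The locus forms were compared by the share of miR-129-2-3p in the 3p counts, as the authors assigned them to the 2 names. It was 77.8% in saline replicate 1 (95% exact binomial interval 77.3 to 78.3), 83.4% in saline replicate 2 (82.6 to 84.2) and 82.8% in saline replicate 3 (82.4 to 83.2). It was 77.8% in morphine replicate 1 (77.0 to 78.6), 69.6% in morphine replicate 2 (68.6 to 70.5) and 70.3% in morphine replicate 3 (69.4 to 71.2). The locus 2 form was the larger in all 6 libraries, and replicate 1 of both groups had nearly the same share, so the groups overlapped. The means were 81.4% ± 3.07 (SD, n = 3) and 72.6% ± 4.57 (SD, n = 3), a difference of -8.78 percentage points (exact permutation test, two-sided p = 0.2). Counting error was small beside the spread between libraries.

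The same share was computed for the other arms listed as forms of locus 1 and locus 2. Of 14 such arms, 8 had shares that did not overlap between the groups (57.1%), and miR-129 was among the 6 others. The 14 are not all separate measurements. miR-24-2-5p and miR-3074-2-3p, both among the 8, lie on opposite strands of a locus, and the latter had 97.8% to 100% of the count of the former. A total of 8 arms had a lower mean locus 2 share in morphine. The differences ran from -38.0 percentage points for miR-7a-2-3p to 19.8 for miR-138-2-3p, with a median size of 12.6, and 8 arms differed by more than miR-129. The difference for the miR-129 loci was therefore below the median size of these arms.

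**Figure D2:**
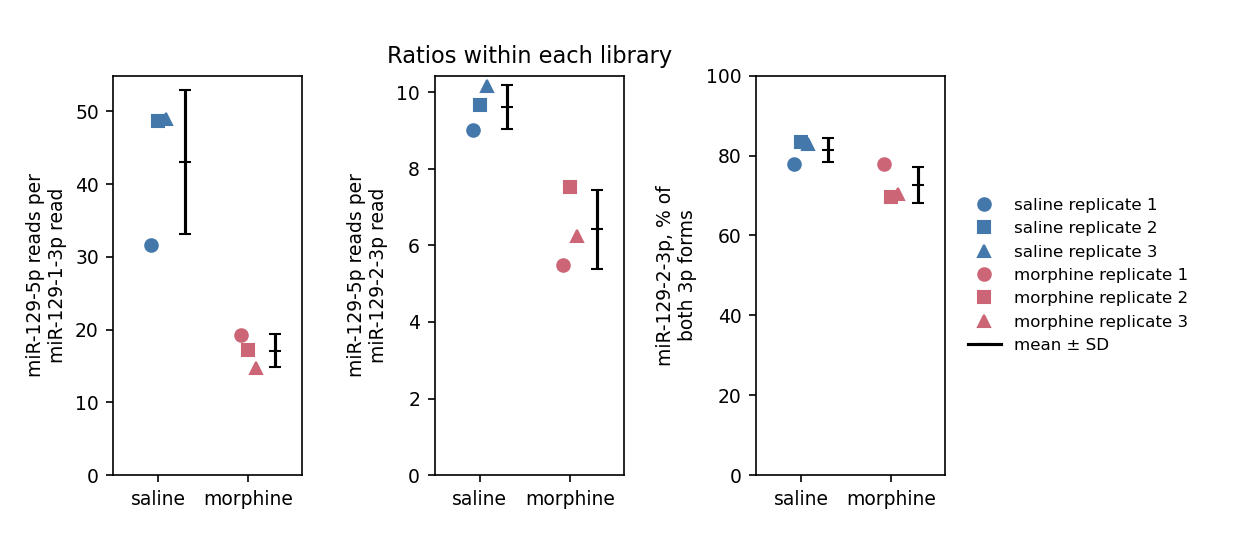
Ratios within the 6 libraries. From left to right, miR-129-5p counts per miR-129-1-3p count, miR-129-5p counts per miR-129-2-3p count, and the percentage of miR-129-2-3p in both 3p forms, with points for libraries and black bars for the mean ± SD (n = 3). Both ratios were lower in all 3 morphine libraries, whereas the share was 77.8% in replicate 1 of both groups.

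Opposite-strand sharing was examined for both arms of the chromosome 2 locus. miR-129b-3p had 99.7%, 99.7% and 99.8% of the count of miR-129-5p in saline and 99.6%, 99.7% and 99.7% in morphine. The counts differed by 617, 169 and 542 in saline and by 179, 136 and 128 in morphine, with miR-129-5p always the larger. The mean percentages differed by -0.081 percentage points between the groups (exact permutation test, two-sided p = 0.3). Mature miR-129-5p starts 3 bases inside the far end of miR-129b-3p and its other end extends 1 base beyond it, so the annotated molecules do not have the same ends. How reads were assigned to strands is not given in the sources used here, and whether reads were counted under both names was not tested. The counts of miR-129b-3p and miR-129-5p are therefore treated as 1 measurement.

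The other arm did not show equal counts. miR-129b-5p had 15.9%, 19.4% and 18.6% of the count of miR-129-2-3p in saline and 15.1%, 16.9% and 14.3% in morphine. These groups overlapped, and the means of 17.9% ± 1.85 (SD, n = 3) and 15.4% ± 1.33 (SD, n = 3) differed by -2.52 percentage points (exact permutation test, two-sided p = 0.2). Against miR-129-1-3p the same counts came to 55.6%, 97.5% and 89.5% in saline and 53.2%, 38.6% and 33.7% in morphine, a much wider range. Of the 22 bases of miR-129b-5p, 21 in a row have their reverse complement in the Mir129-1 hairpin too. Among the sense 3p forms, miR-129b-5p thus kept the steadier proportion to that of its own locus.

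Other loci of the table had both patterns. There were 28 pairs of listed forms on opposite strands of a locus whose sequences were reverse complements over at least 15 bases, 22 of them with at least 60 counts in total for the smaller form. In 10 of the 22 the smaller form had at least 90% of the larger count in all 6 libraries, as for miR-129b-3p, in 9 it had less than 90%, as for miR-129b-5p, and 3 were mixed. Of the 9, 8 had a value in all 6 libraries and 1, miR-292b-3p against miR-292a-5p, in 5. Within the 9 pairs, the percentage of miR-129b-5p varied least over the libraries, by a factor of 1.36 between the highest and the lowest. The factor was largest, 46.5, for miR-9b-5p against miR-9-3p, which had 0.617%, 0.589% and 0.723% in saline and 17.4%, 27.4% and 18.3% in morphine. These comparisons are descriptions of the pairs and were not tested.

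**Figure D3:**
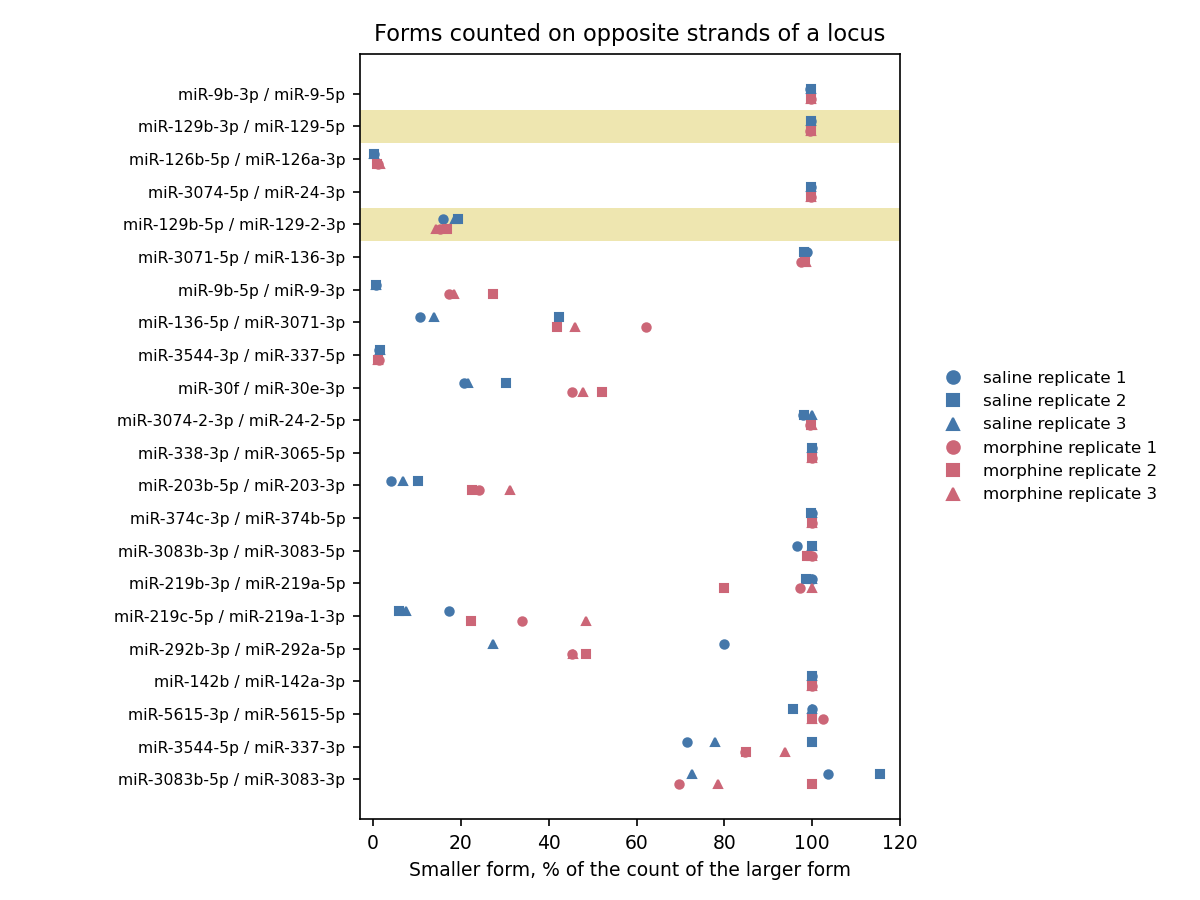
Smaller form as a percentage of the count of the larger form for the 22 opposite-strand pairs, with points for libraries and the miR-129 pairs shaded. miR-129b-3p sits at 99.6% to 99.8% of miR-129-5p in every library, and miR-129b-5p at 14.3% to 19.4% of miR-129-2-3p.

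miRNAs with a like pattern over the 6 libraries were sought among 601 miRNAs, by Pearson's correlation of the TMM-scaled levels with those of miR-129-5p on a log2 scale. These values are descriptive, as the 6 points share their groups and saline replicate 2. Outside the family, the most alike were miR-99b-5p (r = 0.998), miR-485-5p (0.997), miR-3072-3p (0.988), novel_147, a miRNA predicted by the authors (0.986), and miR-935 (0.986). miR-99b-5p, clustered in the genome with let-7e and miR-125a, had 20280, 5093 and 15331 CPM in saline and 2975, 3951 and 3844 in morphine. miR-485-5p, which is known to act on presynaptic proteins, had 1496, 417 and 1328 CPM in saline and 216, 319 and 323 in morphine. Like miR-129-5p, both had their lowest saline value in saline replicate 2 and their lowest morphine value in morphine replicate 1. Within the family, r with miR-129-5p was 0.995 for miR-129b-5p, 0.972 for miR-129-2-3p and 0.7798 for miR-129-1-3p.

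The wider setting was described with lists of miRNAs chosen for their known roles. Of 25 neuron-enriched miRNAs other than miR-129, 7 were lower and 4 higher after morphine by the study's criteria, and 14 did not meet them. Over all miRNAs, many with few counts, 9.68% were called in each direction. Among the 594 miRNAs left by the filterByExpr filter, 15.2% were called lower and 16.2% higher. The list was not recounted with that filter. At an adjusted p under 0.05, 5 of the 25 were lower and 0 higher (edgeR), against 2.13% of all miRNAs lower and 5.21% in either direction. The median log2 fold change of the list was -0.21, beside -0.15 over all miRNAs. The 7 lower were miR-330-3p (log2 fold change -2.59), miR-485-5p (-1.92), miR-124-3p (-1.88), miR-135a-5p (-1.83), miR-125b-5p (-1.77), miR-181a-5p (-1.58) and miR-149-5p (-1.50). Of these, miR-124-3p is a miRNA of nearly all neurons. miR-135a-5p was lower only through saline replicate 2: its TMM-scaled CPM was 91.0, 1313 and 111 in saline and 163, 140 and 125 in morphine, and without that library its log2 fold change turned to 0.50. Without morphine replicate 1 the calls of miR-135a-5p, miR-149-5p and miR-136-5p were lost, with log2 fold changes of -1.80, -1.31 and 2.36. The 4 higher were miR-136-5p (2.38), miR-488-3p (1.84), miR-495-3p (1.65) and miR-218-5p (1.53). Among the 14 that did not meet the criteria were miR-128-3p and miR-9-5p, which are abundant in neurons, at 0.47 (SE 0.45) and -0.15 (SE 0.51) respectively. With saline replicate 2 left out, 12 instead of 4 neuron-enriched miRNAs were higher, while the share of all miRNAs called higher went from 9.68% to 20.9%.

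Of 15 miRNAs linked to homeostatic synaptic scaling, 4 were lower (miR-124-3p, miR-377-3p, miR-378a-3p and miR-485-5p) and 3 higher (miR-218-5p, miR-381-3p and miR-495-3p). The other 8 did not meet the criteria. Over all miRNAs 9.68% were called in each direction, and among the 594 left by filterByExpr 15.2% were lower and 16.2% higher. At an adjusted p under 0.05, 2 of the 15 were lower and 0 higher (edgeR), against 2.13% of all miRNAs lower. miR-377-3p had 3, 128 and 11 counts in saline and 13, 10 and 17 in morphine, so that it was lower only through saline replicate 2, and without that library its log2 fold change turned to 1.03. Its call was also lost without morphine replicate 1 (-1.63) or 2 (-1.76), and that of miR-378a-3p without saline replicate 3 (-0.95), morphine replicate 2 (-1.08) or morphine replicate 3 (-1.07). With saline replicate 2 left out, 6 instead of 3 were higher, while the share of all miRNAs called higher went from 9.68% to 20.9%. The median log2 fold change was -0.15, equal to that over all miRNAs. The list shares 8 members with the neuron-enriched list, so the counts are not separate. miR-134-5p, which limits dendritic spine size, had a log2 fold change of -0.79 (SE 0.47) and did not meet the criteria.

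**Figure D4:**
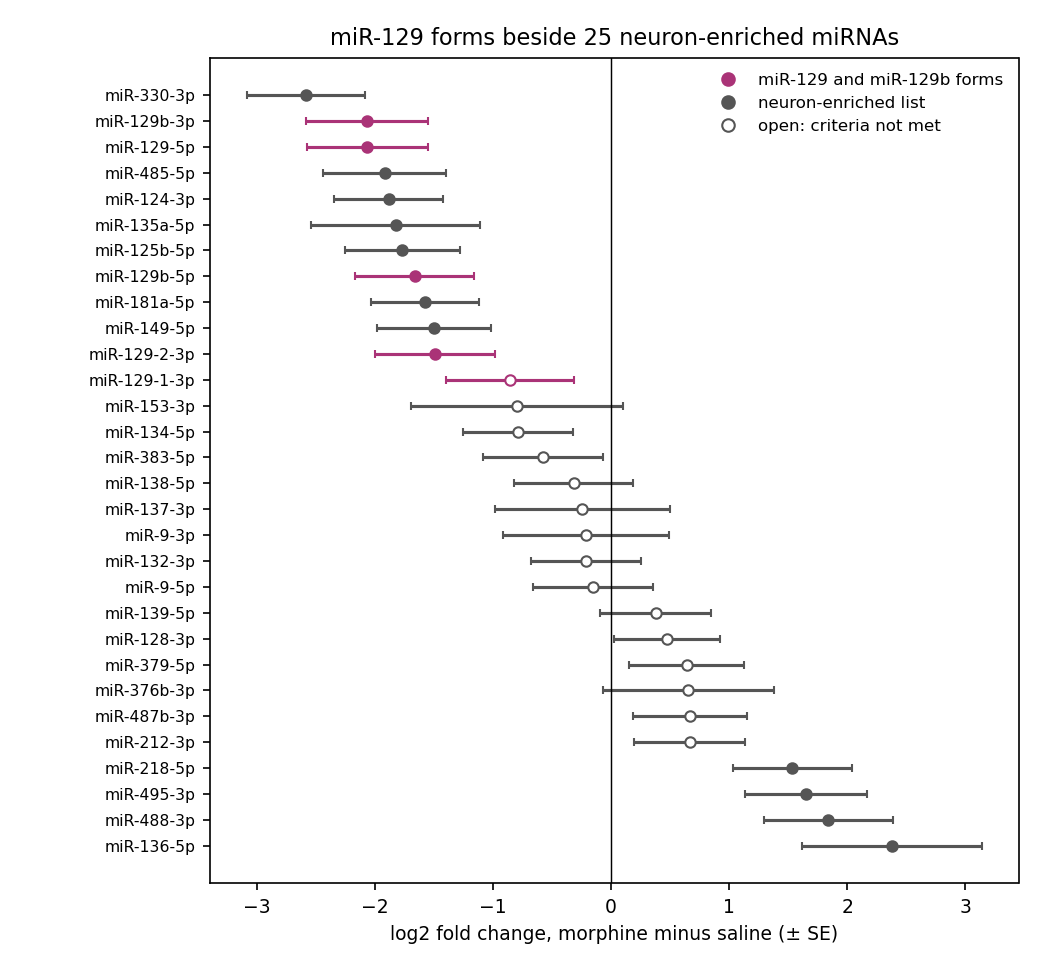
Log2 fold change, morphine minus saline, of the 5 miR-129 forms and 25 neuron-enriched miRNAs, with bars for the SE of the fit. Filled points met the study's criteria. miR-129-5p at -2.07 and miR-129b-3p lie beside miR-330-3p and miR-485-5p at the lower end, and the list reaches 2.38 for miR-136-5p.

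Marker miRNAs of 8 cell types or tissues were summed per library, and 4 of the 8 sums did not overlap between the groups. Over all miRNAs taken singly, 22.1% did not overlap and 19.4% met the study's criteria, in either direction. The summed TMM-scaled CPM of the neuronal markers (miR-124-3p, miR-128-3p and miR-9-5p) was 127126 to 270801 in saline and 176647 to 204976 in morphine and overlapped, with 1 of 3, miR-124-3p, called and lower. The sum of 3 oligodendrocyte markers overlapped too (1820 to 1903 against 1572 to 1963), with 1 of 3, miR-219a-5p, called and lower. miR-219a-5p had 2.75, 63.9 and 2.41 CPM in saline and 3.98, 0.733 and 0.471 in morphine, and without saline replicate 2 its log2 fold change went from -3.69 to -0.50 and was not called. Endothelial markers summed to 1485 to 5002 in saline and 10984 to 16264 in morphine, without overlap, with 1 of 2 called and higher. That marker was miR-126a-3p, whereas the other arm of its hairpin, miR-126a-5p, had a log2 fold change of -0.96 (SE 0.72). Markers of microglia and leukocytes summed to 155 to 272 in saline and 854 to 1069 in morphine. Of these, 1 of 4, miR-146a-5p, was called and higher, and the leukocyte miRNA miR-142a-3p had mean levels of only 4.65 and 3.50 CPM. The log2 fold changes of the uncalled markers were 0.41 (miR-223-3p), -0.39 (miR-142a-3p) and -0.67 (miR-142a-5p). Markers of ependyma and choroid plexus were 1945 to 2766 in saline and 940 to 992 in morphine, with 1 of 4, miR-204-5p, called and lower. The uncalled ones had log2 fold changes of 0.69 (miR-449a-5p), 0.17 (miR-34b-5p) and -0.29 (miR-34c-5p). Erythroid markers were 208 to 311 in saline and 358 to 571 in morphine, with 1 of 3, miR-451a, called and higher. The uncalled ones went the other way, at -0.20 (miR-486a-5p) and -1.31 (miR-144-3p, with means of 0.946 and 0.347 CPM). The sums of muscle and mural markers (7334 to 19890 against 6145 to 14259, 0 of 4 called) and of epithelial markers (6.08 to 28.0 against 23.7 to 199, 2 of 3 called and higher) overlapped. The epithelial calls, of miR-200a-3p and miR-200b-3p, were lost without morphine replicate 1, where the log2 fold changes went from 2.57 to 1.01 and from 1.84 to 0.69. No marker was at 0 in every library. The part of these marker differences in the lower levels of the called miR-129 forms was not tested.

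The fold changes were recomputed under 19 alternatives of scaling, test, filter and library. miR-129-5p met the study's criteria in all 19, with log2 fold changes from -2.54 to -1.60, and its adjusted p was under 0.05 in 13 of them (adjusted p from edgeR or DESeq2 between 3.25e-24 and 0.295). In each of these settings the log2 fold change of the sense forms was lowest for miR-129-5p and highest for miR-129-1-3p, and all were below 0. The scalings moved the median of all miRNAs from -0.15 to -0.23 (relative log expression), -0.35 (upper quartile) and -0.40 (library totals), and leaving out saline replicate 2 moved it to 0.20.

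**Figure D5:**
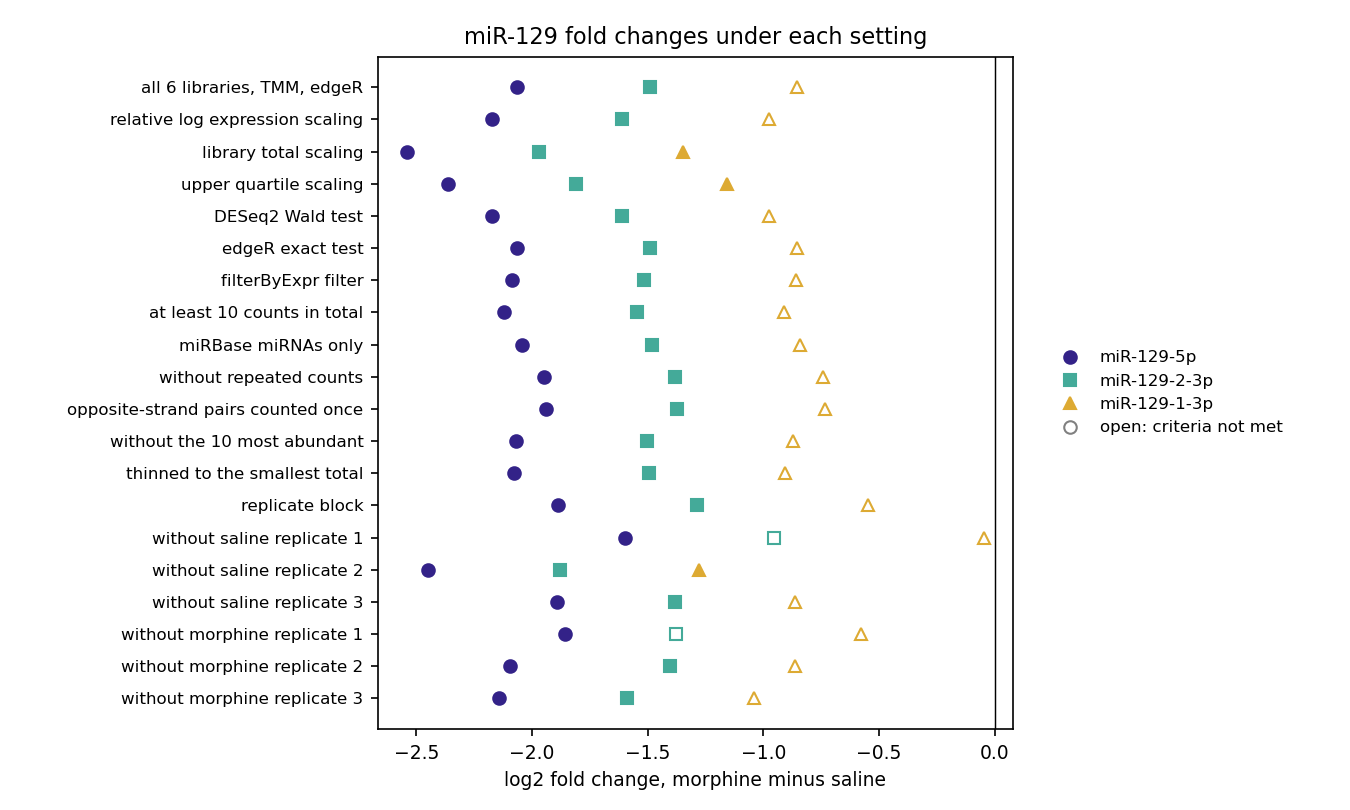
Log2 fold change, morphine minus saline, of miR-129-5p, miR-129-2-3p and miR-129-1-3p with all 6 libraries and under each of 19 alternatives. Filled points met the study's criteria. miR-129-5p stays between -2.54 and -1.60, while miR-129-1-3p runs from -1.35 with library total scaling to -0.05 without saline replicate 1.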

How the data were processed

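The authors removed reads with adapters, poly-N or low quality, kept lengths of 15 to 35 nt, used Bowtie to filter out repeats and other classes of non-coding RNA, and compared the rest with miRBase. They deposited raw counts per mature miRNA and library, and the authors deposited TPM values beside them, which equal each count per M counts of the library and were not used in a test. Genome build, miRBase release and handling of strand are not given in the sources used here. Totals of 4183333 to 9842050 counts set the precision, and all 6 libraries and columns were used (0 columns left out).

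All 1364 miRNAs were tested with the quasi-likelihood test of edgeR 4.0.16 in R 4.3.3 after TMM scaling, without covariates, with Benjamini-Hochberg adjustment. Arm ratios, log2((5p + 0.5)/(3p + 0.5)), were fitted with limma 3.58.1 (eBayes with trend) over 195 pairs with a mean of at least 10 counts in each arm. Ratios and shares were compared with exact two-sided permutation tests over libraries, for which p cannot go below 0.1. Opposite-strand pairs were found by reverse complement of RefSeq sequences at 1 locus, for 1089 listed miRNAs with a sequence. Positions are GRCm38 (GENCODE vM21, RefSeq GRCm38.p6). The fits were also run on simulated counts with known changes. Those counts were drawn independently for each miRNA and without a deviating library, so the run does not bear on saline replicate 2 or on shared counts. Alternatives covered scaling, test (DESeq2 1.42.0 and the edgeR exact test), filters, features, thinning, the replicate number as a block and leaving out each library. The miRNAs named are the 5 forms, the lists and pairs described, and the 5 with the highest Pearson r with miR-129-5p in log2(CPM + 1) and a mean of at least 10 counts. The members and lists were chosen with earlier results of these data known.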

Additional observations from a re-analysis of the deposited data

How the results depend on the processing

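The log2 fold changes kept their direction under all alternatives. miR-129-1-3p met the study's criteria with library total scaling (-1.35) and upper quartile scaling (-1.16), and ranged from -1.28 to -0.048 when each library was left out. miR-129-2-3p ranged from -1.88 to -0.95 in the same way. The number of forms called by the study's criteria was 2 of 3 with opposite-strand pairs counted once, beside 18.2% of all miRNAs. It was 3 to 5 of 5 with 1 library left out, beside 13.3% to 37.0% of all miRNAs. At an adjusted p under 0.05, 4 of 5 were called with library total scaling, upper quartile scaling and DESeq2. Of all miRNAs, 11.7%, 11.2% and 11.4% were so called there, against 5.21% with TMM and edgeR. With opposite-strand pairs counted once, 1 of 3 was called, beside 5.16%. The count was 0 with filterByExpr, a minimum of 10 counts or repeated counts removed, beside 9.43%, 3.11% and 2.86%. It was 0 to 5 without 1 library (5 without saline replicate 2, 0 without morphine replicates 1 or 2). The cause was not tested. Over all miRNAs, 492 of 1328 were called and 386 (29.1%) had an adjusted p under 0.05 without saline replicate 2, and 0 had an adjusted p under 0.05 without morphine replicate 1.

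No pairing by replicate number is given in the sources used here. Same-numbered libraries deviated from their group means with r of -0.23, -0.28 and 0.14, and 1 of 6 libraries correlated best with its own number. With 3 libraries per group, these correlations cannot settle whether the numbers pair the samples. With the replicate number as a block, 4 forms still met the study's criteria and 0 an adjusted p under 0.05, beside 13.1% and 2.35% of all miRNAs. There miR-129-5p had a log2 fold change of -1.89 (edgeR, adjusted p = 0.1203). The log2 ratio of miR-129-5p to miR-129-1-3p was -1.31 with the replicate block (limma, adjusted p = 0.126), -1.31 with a mean of at least 1 count per arm (adjusted p = 0.0569) and -1.31 with an exact permutation test (p = 0.1), and -1.52 to -1.21 without 1 library. That of miR-129-5p to miR-129-2-3p was -0.71 to -0.49, with an adjusted p of 0.0380 without saline replicate 2 (limma, 0.0380 to 0.381 over its alternatives). Thinning, which draws each name separately, moved the difference in the percentage of miR-129b-3p to -0.218 points (exact permutation test, p = 0.7). Without 1 library, the neuron-enriched miRNAs numbered 5 to 8 lower and 3 to 12 higher, and the scaling miRNAs 2 to 4 lower and 3 to 6 higher. Of all miRNAs, 5.37% to 16.1% were called lower and 7.38% to 20.9% higher in these settings. The largest counts called higher, 12 and 6, were those without saline replicate 2, where the share of all miRNAs was also largest. An overlap of 12 bases gave the same miR-129 pairs as 15.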

Other observations

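Mir129-2 lies within the gene Mir670hg, which also hosts the hairpin of miR-670. These miRNAs were looked at after their values had been seen. miR-670-3p had 0, 10 and 1 counts in saline and 5, 4 and 8 in morphine, and miR-670-5p had 2, 2 and 0 in saline and 10, 6 and 3 in morphine. Both stayed at 10 counts or fewer in all 6 libraries, and neither difference passed the test (edgeR, adjusted p = 0.799 and 0.426), whereas miR-129-2-3p had 6017 to 27939 counts in the same libraries.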
